A study of Mus musculus with 23 samples.

Results

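The chemokine CXCL12, encoded by Cxcl12, and its receptor CXCR4, encoded by Cxcr4, were examined in primary mammary tumours of the mouse after blockade of interleukin 1 signalling, after chemotherapy with a bisphosphonate, and after both. The members were chosen by name, as the rows Cxcl12 and Cxcr4 of a NanoString panel, which gives 2 genes of the 770 measured. CXCL12 is made mainly by stromal cells, among them fibroblasts, endothelial cells and the stroma of the bone marrow. CXCR4, a receptor that couples to G proteins, is carried by most leucocytes and by many carcinoma cells, and draws them towards CXCL12. The pair is best known for keeping blood stem cells and neutrophils in the marrow and for guiding breast cancer cells to bone.

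Tumours grew from E0771 luc2 GFP cells, a mouse mammary carcinoma line with luciferase and green fluorescent protein, after injection into the mammary duct of female C57BL6/J mice aged 6 to 8 weeks, whose immune system was intact. All 4 groups carried the same line, which is a model of 1 tumour only and had been selected for homing to bone by repeated passage through the circulation. The groups received placebo (P, n = 6), the interleukin 1 receptor antagonist Anakinra daily (A, n = 5), doxorubicin weekly followed a day later by zoledronic acid (DZ, n = 6), or all of these drugs (ADZ, n = 6). The study's legend gives 1 tumour per animal for A and DZ, whereas for P and ADZ the number of animals was not given, so that p-values measure the spread between these tumours. Whole tumours were profiled, so fewer cells of a type and less RNA per cell cannot be told apart.

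The deposited values are log2 of barcode counts times 1 factor per tumour, set on 20 reference genes, and are given below as log2 levels. Per tumour, between 882537 and 1677295 gene counts were obtained. The labels give no batch, cartridge or run. Cdh1, which encodes E-cadherin of epithelial cells, lay above background in 23 of 23 tumours and Epcam, another epithelial marker, in 21. Replicate 4 of P stood apart from the rest of the series. In it the summed log2 level of 8 B cell markers reached 12.1, against at most 7.92 elsewhere, that of 11 lymph node genes reached 13.4, against at most 10.8, and its panel median of 9.09 was the highest of the 23. Results that rest on this tumour are therefore given with and without it.

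Cxcl12, the ligand, varied more between tumours of like treatment than between treatments. In P its log2 level ran from 6.56 through a median of 7.04 to 11.10. The A tumours lay at 7.06, 7.56, 6.78, 7.93 and 8.64. In DZ it ran from 7.73 through 7.87 to 9.98, and in ADZ from 6.60 through 7.62 to 9.53. All 4 groups overlapped, and in P, DZ and ADZ the highest tumour lay far above the median. Group means were 7.87 ± 1.79 (SD, n = 6) in P, 7.59 ± 0.73 (SD, n = 5) in A, 8.20 ± 0.88 (SD, n = 6) in DZ and 7.90 ± 1.05 (SD, n = 6) in ADZ.

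The spread of Cxcl12 was large for this panel. Replicate 5 of P and replicate 4 of P, its lowest and highest tumours, differed 23.2-fold. Within groups the SD was 1.20 log2 units, which ranked 15 of the 541 genes that lay above background in all tumours, where the median SD was 0.40. Without replicate 4 of P it was 0.91. The 4 groups accounted for 3.59% of the variance of Cxcl12, against a median of 5.76% over those 541 genes. The lowest count of Cxcl12 was 67, whose counting error is 12.2%, and every tumour lay at least 2.40-fold above its background.

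The high values were few. In DZ, 5 tumours lay between 7.73 and 7.97 (SD 0.11), and replicate 6 alone was at 9.98. Leaving out replicate 4 of P brought the P mean to 7.22 ± 0.94 (n = 5), which then was the lowest of the 4 means rather than the third. The order of the means therefore rests on single tumours, and no neighbouring pair in it differed beyond its spread.

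Cxcr4, the receptor, spanned a narrower range. In P its log2 level ran from 7.75 through a median of 8.29 to 9.66. The A tumours lay at 7.79, 8.19, 7.98, 8.32 and 7.81. It ran in DZ from 7.99 through 8.60 to 8.96, and in ADZ from 7.74 through 8.22 to 8.69. The groups again overlapped, with the A tumours in the lower part of the range and 4 DZ tumours above every A tumour. Group means were 8.55 ± 0.41 (SD, n = 6) in DZ, 8.41 ± 0.66 (SD, n = 6) in P, 8.22 ± 0.31 (SD, n = 6) in ADZ and 8.02 ± 0.23 (SD, n = 5) in A. Without replicate 4 the P mean was 8.16 ± 0.28 (n = 5), below that of ADZ.

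Replicate 5 of ADZ and replicate 4 of P, the ends of the Cxcr4 range, differed 3.79-fold. The SD of Cxcr4 within groups, 0.44, ranked 235 of 541 and was close to the panel's median. Groups accounted for 19.1% of its variance, which ranked 47 of 541. Counts were between 195 and 619, and every tumour lay at least 8.65-fold above background.

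**Figure D1:**
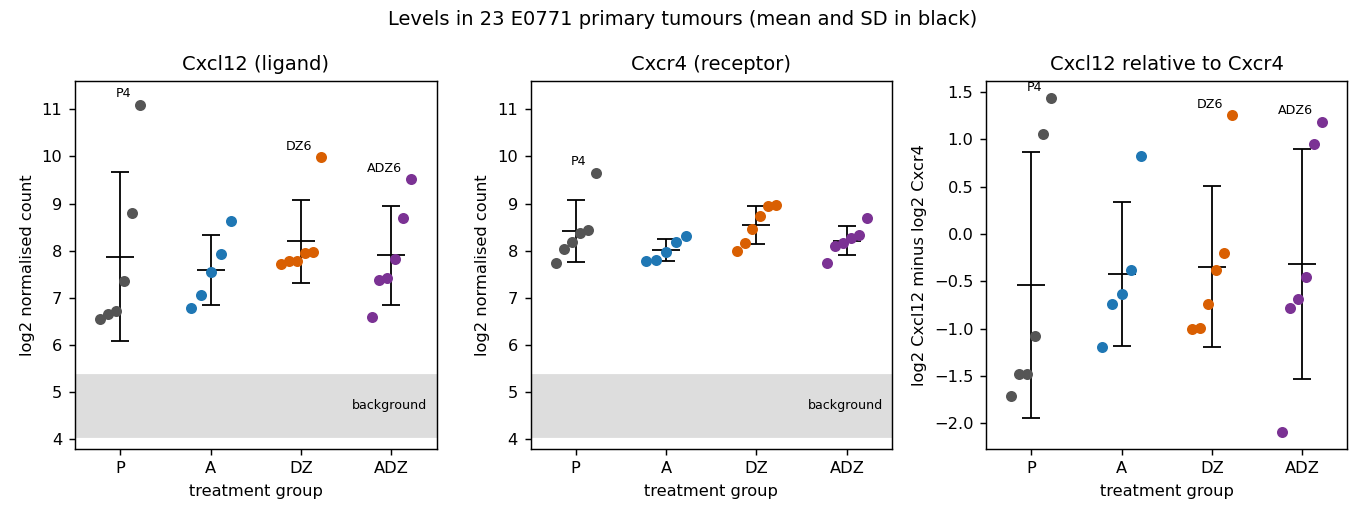
Log2 normalised counts of Cxcl12 (left) and Cxcr4 (middle) and their log2 ratio (right) in each tumour (points, ordered by value) by treatment group, with the mean and SD in black and the range of the tumours' backgrounds in grey. Cxcl12 ran from 6.56 to 11.10 and Cxcr4 from 7.74 to 9.66, the groups overlapped in all panels, and replicate 4 of P was the highest tumour for each gene.

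The first question was whether blockade of interleukin 1 signalling or the chemotherapy moved the ligand or the receptor. Differences were estimated with limma, and p-values were adjusted over all 770 genes (Benjamini-Hochberg). No gene passed an adjusted p of 0.05 in any of the 9 contrasts (0 of 770, or 0%, in each), and neither did Cxcl12 or Cxcr4. An unadjusted p under 0.05 was reached by 9 genes (1.17%) in A minus P, 12 (1.56%) in DZ minus P, 11 (1.43%) in ADZ minus P, 8 (1.04%) in ADZ minus DZ, 1 (0.13%) in ADZ minus A and 33 (4.29%) in A minus DZ. It was reached by 25 (3.25%) for the main effect of Anakinra, 12 (1.56%) for that of doxorubicin with zoledronic acid and 2 (0.26%) for the interaction. Cxcr4 was among the 33 of A minus DZ, and Cxcl12 was among none.

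Cxcl12 was 0.28 log2 units lower in A than in P by its means, with a 95% confidence interval from -1.71 to 1.16, that is from 0.305-fold to 2.23-fold (adjusted p = 0.999, limma). This estimate turned to 0.37 when replicate 4 of P was left out. In DZ minus P it was 0.33 (-1.04 to 1.70), which became 0.98 without replicate 4 of P (unadjusted p = 0.0751, adjusted p = 0.896, limma) and -0.02 without replicate 6 of DZ. ADZ minus P was 0.03 (-1.34 to 1.40), or 0.68 without replicate 4 of P and -0.29 without replicate 6 of ADZ. These intervals against P are wide enough to hold changes of over 2-fold in either direction, so that such a change in Cxcl12 was not excluded.

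Among the treated groups no contrast of the ligand was called either, and the estimates again moved with single tumours. Cxcl12 in A minus DZ was -0.61 (-1.58 to 0.36, adjusted p = 0.995, limma), and -0.25 without replicate 6 of DZ. In ADZ minus DZ it was -0.30 (-1.67 to 1.07), which became 0.06 without that tumour, and in ADZ minus A 0.31 (-1.13 to 1.75), which became -0.02 without replicate 6 of ADZ. Averaged over both chemotherapy backgrounds, Anakinra gave -0.29 (-1.28 to 0.70), or 0.03 without replicate 4 of P. Doxorubicin with zoledronic acid, averaged over both Anakinra backgrounds, gave 0.32 (-0.67 to 1.31), or 0.64 without that tumour. The interaction of the treatments on Cxcl12 was -0.02 (-2.01 to 1.96), or -0.67 without replicate 4 of P and 0.33 without replicate 6 of DZ.

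Cxcr4 had lower means with Anakinra than in the matching group without it, but no contrast passed the adjusted test. A minus P was -0.39 (95% interval -0.94 to 0.15, adjusted p = 0.999, limma), or -0.14 without replicate 4 of P. ADZ minus DZ was -0.33 (-0.85 to 0.19). The main effect of Anakinra was -0.36 (-0.74 to 0.02, unadjusted p = 0.0594, adjusted p = 0.997, limma), rank 31 of 770 by p. The median of all genes in that contrast was -0.09, with 557 of 770 genes lower. Without replicate 4 of P the value for Cxcr4 was -0.24, and after recentring each tumour on the median of its panel genes it was -0.15.

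The study picked Cxcr4 among its differing genes from the A and DZ tumours, so the value of that contrast is given as a description. There Cxcr4 was lower in A by 0.53 log2 units in the means (estimate -0.53, interval -0.99 to -0.07, or 0.69-fold, with an interval from 0.51-fold to 0.95-fold). The median of all genes was -0.13, with 575 of 770 genes lower. Recentring on the panel median gave -0.29 and scaling the counts on the positive controls instead of the reference genes gave -0.23. On the deposited scale the unadjusted p of Cxcr4 was 0.0266 and the adjusted p 0.978 (limma), so it was not called. The study set limits on the p-value and the false discovery rate, and a minimum fold change. As fitted here, Cxcr4 met neither the study's limit on the false discovery rate nor its minimum fold change.

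Chemotherapy gave no called contrast for the receptor either. Cxcr4 in DZ minus P was 0.14 (-0.39 to 0.66), which became 0.39 without replicate 4 of P and -0.03 with positive control scaling. ADZ minus P was -0.19 (-0.72 to 0.33), or 0.05 without that tumour, and ADZ minus A was 0.20 (-0.35 to 0.75). The main effect of doxorubicin with zoledronic acid was 0.17 (-0.21 to 0.54) and became 0.29 without replicate 4 of P (unadjusted p = 0.0475, adjusted p = 0.953, limma). The interaction was 0.06 (-0.69 to 0.82), or -0.19 without that tumour. In each of the 9 contrasts the interval for Cxcr4 was narrower than that for Cxcl12.

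**Figure D2:**
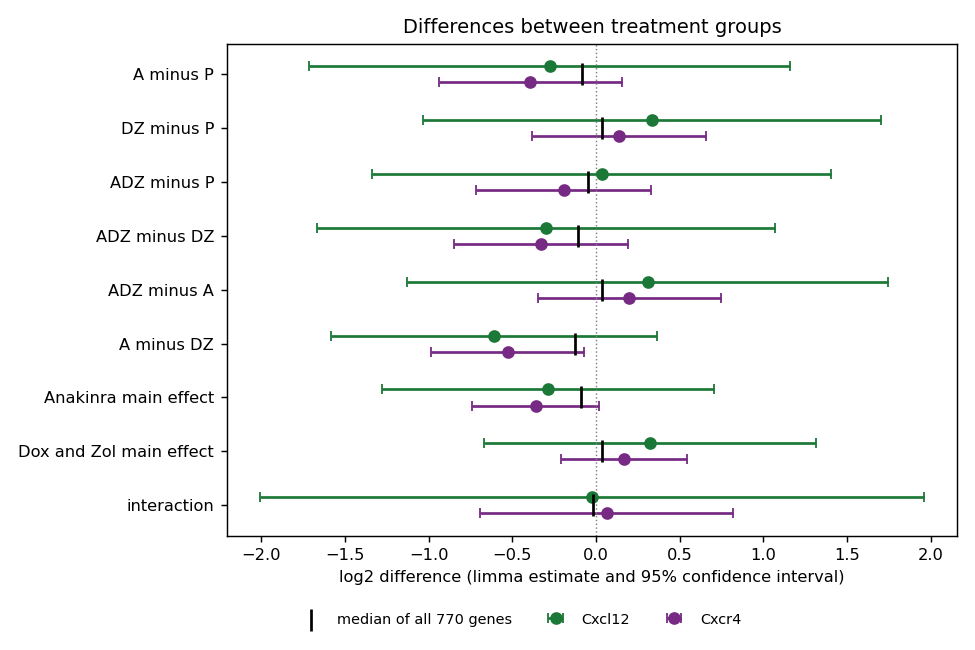
Log2 differences of Cxcl12 (green) and Cxcr4 (purple) in 6 pairs of groups, the main effects of Anakinra and of doxorubicin with zoledronic acid (Dox and Zol), and their interaction, as limma estimates with 95% confidence intervals. Black ticks mark the median of all 770 genes. All intervals hold 0 except that of Cxcr4 in A minus DZ (-0.99 to -0.07), the contrast from which the study picked Cxcr4.

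The ratio of ligand to receptor within a tumour does not depend on the factor that scales the tumour, and allows a comparison of groups free of it. The log2 level of Cxcl12 minus that of Cxcr4 ran from -1.71 through -1.28 to 1.44 in P, and from -1.0 through -0.56 to 1.25 in DZ. In ADZ it ran from -2.09 through -0.57 to 1.19, and the A tumours lay at -0.74, -0.63, -1.20, -0.38 and 0.83. The levels of different probes are not comparable, so only the differences between groups are read. None was larger than its spread: the 6 differences of means ran from -0.08 (A minus DZ) to 0.23 (ADZ minus P), with exact two-sided permutation p-values from 0.738 to 0.961 and an adjusted p of 0.961 for each, where the smallest p the groups allow is 0.00216.

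Other genes of the axis were also counted. They comprise enzymes that cut CXCL12, related ligands and receptors, and genes linked to its production or to the release of cells it holds, and 17 of the 19 names listed were measured, the pair itself included. The names not found, Ackr3 and Cxcr7, both stand for ACKR3, the other receptor of CXCL12, which was therefore not analysed here. None of the 17 was called in any contrast (background 0%). The median difference over them was -0.15 for the main effect of Anakinra, with 15 of 17 lower. Over all genes it was -0.09, with 557 of 770 lower. In DZ minus P the median was 0.08, with 12 of 17 higher, beside 0.04 over all genes, with 443 of 770 higher. Among the 18 chemokine receptors, which include Cxcr4, 15 were lower for Anakinra (median -0.23), and among the 13 CXC chemokines, which include Cxcl12, 11 were lower (median -0.22). None of these was called. Members of both families that reached an unadjusted p under 0.05 for Anakinra were Ccr1, a receptor of inflammatory CC chemokines on myeloid cells, at -0.39 (SE 0.13), and Cxcl2 and Cxcl3, which attract neutrophils, at -0.95 (SE 0.41) and -1.18 (SE 0.52). Their adjusted p was 0.997 each (limma).

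The second question was whether ligand and receptor varied together among tumours of like treatment. With group means removed, the Pearson correlation of Cxcl12 with Cxcr4 was 0.40 over 23 tumours (permutation p = 0.176) and Spearman's rho was 0.20 (permutation p = 0.373). Within groups of 6 it was 0.70 in P, 0.30 in DZ and -0.44 in ADZ, with exact permutation p-values of 0.136, 0.681 and 0.385 (adjusted over these 3 tests 0.408, 0.681 and 0.578). Without replicate 4 of P the correlation over 22 tumours was -0.15, and without the 2 tumours farthest from the median of Cxcl12, replicate 4 of P and replicate 6 of DZ, it was -0.13. The positive value thus rests on replicate 4 of P. Of the 6 tumours with the highest Cxcl12 and the 6 with the highest Cxcr4, 2 were shared, namely those same tumours.

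Each gene was then set against all others of the panel, with treatment group as a term in limma and p-values adjusted over 769 genes. Within groups, 191 of 769 genes (24.8%) moved with Cxcl12, of which 183 (23.8%) were higher and 8 (1.04%) lower where Cxcl12 was high. For Cxcr4 the count was 351 of 769 (45.6%), with 321 (41.7%) higher and 30 (3.9%) lower. Both members followed the general level of the panel after reference gene scaling. The within-group correlation with the median of the panel was 0.72 for Cxcl12 (rho 0.62, permutation p = 0.00254) and 0.78 for Cxcr4 (rho 0.69, permutation p = 0.00167), or 0.47 and 0.57 without replicate 4 of P. Without the 2 tumours farthest from each member's median it was 0.42 and 0.61. With the log2 of the total gene count, that is with depth, Cxcr4 correlated at -0.51 (rho -0.64, permutation p = 0.0122, and -0.68 without the 2 farthest tumours), and Cxcl12 at -0.000398 (rho 0.07, permutation p = 0.999). Adjusted over these 4 relations the p-values were 0.00508 for both relations with the panel median, and 0.0163 and 0.999 for depth.

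Removing this general level left unlike counts for the pair. After recentring each tumour on its panel median, 181 genes moved with Cxcl12 (76 higher, 105 lower), 83 of them among the 191, whereas 0 moved with Cxcr4 (limma). Under quantile normalisation the counts were 185 (87 higher, 98 lower) and 4 (all higher). Positive control scaling gave 150 and 253, all of them higher. Without replicate 4 of P, 53 genes (6.89%) moved with Cxcl12, all higher and all among the 191. With Cxcr4, 76 genes did (74 higher, 2 lower), 68 of them among the 351. Across 29 settings (the deposited scale, the 3 other scalings, the pseudocount, the replicate number as a block and each tumour left out), 47 genes were higher with Cxcl12 in every setting and 0 were so with Cxcr4. The 47 include Fn1, Serping1, C3, Egr1, Cd1d1, Col1a1, Col3a1, Fap, Thy1, Cfd, Pparg, Mrc1, Cd163 and Epcam, which are described below. They also include Cxcl13, Cxcl15 and Jam3, which lay at or below background in many tumours. No setting left out replicate 4 of P and recentred at the same time.

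The genes most like Cxcl12 were Fn1, Serping1, C3, Egr1 and Cd1d1. Fn1 encodes fibronectin, a protein of the extracellular matrix. Its log2 level ran from 8.48 through 9.02 to 11.90 in P and from 9.13 through 9.97 to 11.04 in DZ, and from 8.23 through 9.14 to 10.74 in ADZ. The A tumours lay at 9.18, 9.13, 8.36, 9.72 and 10.58. The 6 tumours with the highest Fn1 were the 6 with the highest Cxcl12, namely replicates 1 and 4 of P, replicate 5 of A, replicate 6 of DZ and replicates 5 and 6 of ADZ. These came from all 4 groups.

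Within groups Fn1 correlated with Cxcl12 at 0.92 (rho 0.85, permutation p = 3e-05), and rose by 0.77 (SE 0.08) log2 units per log2 unit of Cxcl12 (adjusted p = 6.83e-07, limma). The correlation was 0.95 in P, 0.82 in DZ and 0.92 in ADZ. It was 0.87 without replicate 4 of P, 0.87 without that tumour and replicate 6 of DZ, and 0.88 after recentring. Serping1, which encodes the inhibitor of complement C1, followed at 0.91 (rho 0.77, permutation p = 1e-05, the smallest the permutations can give, adjusted p of the slope 1.05e-06, limma). Without the 2 farthest tumours its correlation was 0.81.

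C3, the central complement component, correlated with Cxcl12 at 0.89 (rho 0.78, permutation p = 5e-05, adjusted p of the slope 5.18e-06, limma), and at 0.77 without the 2 farthest tumours. Egr1, an immediate early transcription factor, did so at 0.89 (rho 0.77, permutation p = 4e-05, adjusted p 1.5e-05, limma), and at 0.78 without them. Cd1d1, which presents lipids to natural killer T cells, did so at 0.86 (rho 0.81, permutation p = 8e-05, adjusted p 2.14e-05, limma), and at 0.75 without them. All 5 genes also passed the test without replicate 4 of P and after recentring, with adjusted p-values up to 0.0102 and 0.00306 respectively (limma).

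In contrast, the genes most opposed to Cxcl12 depended on replicate 4 of P. Herc6, a ubiquitin ligase induced by interferon, correlated at -0.71 (rho -0.51, permutation p = 0.00398), Jun, a transcription factor of the AP-1 complex, at -0.65 (rho -0.42, permutation p = 0.00689), and Il1rn, which encodes the natural antagonist of the interleukin 1 receptor, at -0.61 (rho -0.41, permutation p = 0.0167). Without the 2 farthest tumours these values were -0.39, -0.40 and -0.33, and under positive control scaling -0.13, -0.01 and -0.20. None of the 3 passed the adjusted test without replicate 4 of P (limma, adjusted p from 0.44 to 0.573).

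**Figure D3:**
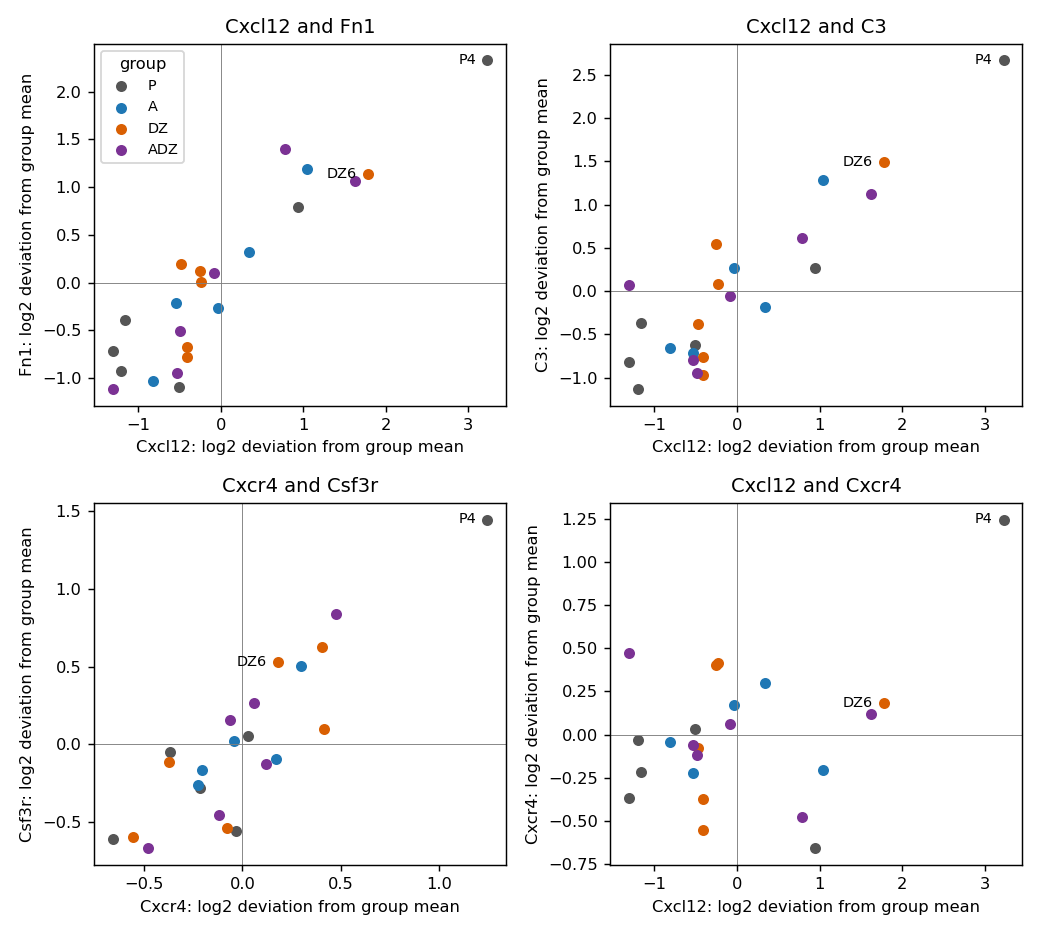
Log2 deviations from the group mean in 23 tumours (points, coloured by group) for Cxcl12 with Fn1 and C3, for Cxcr4 with Csf3r, and for Cxcl12 with Cxcr4. The points rise together for Fn1 (r = 0.92), C3 (r = 0.89) and Csf3r (r = 0.87), whereas Cxcl12 and Cxcr4 (r = 0.40) show no common rise once replicate 4 of P is left out (r = -0.15).

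The lists of cell type markers were then counted against Cxcl12. Of 13 measured genes of fibroblasts and matrix, 5 were higher with Cxcl12 (background 23.8%): Fn1, the collagens Col3a1 (r = 0.85) and Col1a1 (r = 0.79), Fap (r = 0.84), a protease of activated fibroblasts, and Thy1 (r = 0.77), a surface glycoprotein of fibroblasts and T cells. The same number, 5, passed without replicate 4 of P, where the background was 6.89%. After recentring 5 were higher and 1 other gene was lower, beside 9.88% higher and 105 of 769 lower over all genes. Fap lay above background in 3 tumours of P, 5 of A, 5 of DZ and 6 of ADZ. The median correlation over the 13 was 0.48, beside 0.28 over all genes. The remaining genes did not follow, for example Pdgfrb, a receptor of fibroblasts and pericytes (r = 0.10), and Tgfb1 (r = -0.04).

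Of 6 adipocyte genes listed only 2 were measured, Cfd, which encodes adipsin, and Pparg, a regulator of fat cell formation. They correlated with Cxcl12 at 0.79 and 0.77. Both passed the adjusted test under these settings, beside 23.8% over all genes, or 6.89% without replicate 4 of P and 9.88% after recentring. Cfd lay at 14.1 in replicate 4 of P, 11.9 in replicate 6 of DZ and 13.1 in replicate 6 of ADZ, the highest value in each group. The summed log2 level of the 13 stromal genes ran from 14.2 to 16.1 in P, from 14.2 to 15.0 in A, from 14.5 to 15.4 in DZ and from 13.9 to 15.3 in ADZ. Its highest tumour was also the highest for Cxcl12 in P, A and DZ. The part of stromal or adipose tissue in the levels of Cxcl12 was not tested.

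Of 14 measured endothelial genes, 3 were higher with Cxcl12 (21.4%, beside 23.8% over all genes), namely Jam3, Tek and Cd34, and 1 lower (Sele, a selectin of activated endothelium). Jam3 alone of these passed without replicate 4 of P. It lay above background in only 4 tumours of P, 1 of A, 4 of DZ and 4 of ADZ. Pecam1 and Cdh5, which define the endothelium, correlated at 0.15 and 0.09. Of 10 genes of macrophages and monocytes 5 were higher (beside 23.8% over all genes), and 2 without replicate 4 of P (beside 6.89%). These 2 were Mrc1, the mannose receptor (r = 0.83, and 0.73 without that tumour), and the scavenger receptor Cd163 (r = 0.76 and 0.63). Cd163 lay above background in 4 tumours of P, 5 of A, 5 of DZ and 3 of ADZ. The 8 B cell markers, of which 7 were higher with Cxcl12, and the 11 lymph node genes, of which 9 were higher (beside 23.8% over all genes), had 0 and 1 higher without replicate 4 of P. After recentring, with that tumour kept in, 3 B cell markers and 5 lymph node genes were higher, beside 9.88% over all genes. No B cell marker lay above background in all tumours. Of 6 measured epithelial genes, 3 were higher with Cxcl12 (beside 23.8% over all genes), and 2 without replicate 4 of P (beside 6.89%). Their median correlation was 0.42, beside 0.28 over all genes. After recentring 1 was higher, the epithelial marker Epcam, and 1 was lower, beside 9.88% higher and 105 of 769 lower over all genes.

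Of 12 other CXC chemokines 4 were higher with Cxcl12 (33.3%, beside 23.8% over all genes), and 2 without replicate 4 of P (beside 6.89%). The 2 that passed without it were Cxcl13, which attracts B cells (r = 0.82, and 0.71 without it), and Cxcl15 (r = 0.68 and 0.66), which lay above background in 1 and 7 tumours. For Cxcl13 that tumour was in P, at 9.66, and 0 tumours of A, DZ or ADZ lay above background. Its correlations therefore rest almost wholly on levels at or below background, and are not read further. Cxcl5, a neutrophil attractant (r = 0.75 and 0.56), and Cxcl14, a chemokine of epithelium and stroma (r = 0.59 and 0.39), did not pass without that tumour (adjusted p = 0.0944 and 0.406, limma). The interferon-induced Cxcl9, Cxcl10 and Cxcl11 had correlations of -0.24, -0.16 and -0.32, and did not pass. Dpp4, the peptidase that cuts and inactivates CXCL12, was higher with its substrate (r = 0.78, adjusted p = 0.000352, limma). It did not pass without replicate 4 of P (r = 0.59, adjusted p = 0.0597, limma).

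The genes most like Cxcr4 were Csf3r, Slamf6, Gpr183 and Map3k5. Csf3r encodes the receptor of G-CSF, a cytokine that releases neutrophils from the marrow. Its log2 level ran from 7.31 through 7.75 to 9.37 in P, from 7.34 through 7.93 to 8.57 in DZ and from 6.90 through 7.58 to 8.40 in ADZ, and the A tumours lay at 7.25, 7.42, 7.53, 8.01 and 7.35. Of its 6 highest tumours, 5 were among the 6 highest for Cxcr4. The correlation within groups was 0.87 (rho 0.81, permutation p = 5e-05), with a slope of 1.11 (SE 0.15) and an adjusted p of 9.38e-05 (limma). It was 0.76 without replicate 4 of P and 0.76 without that tumour and replicate 1 of P. After recentring it was 0.74, with an adjusted p of 0.0929 (limma).

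Slamf6, a receptor of lymphocytes, also correlated with Cxcr4 at 0.87 (rho 0.77, permutation p = 7e-05), and Gpr183, which positions B cells and dendritic cells in lymphoid organs, at 0.87 (rho 0.81, permutation p = 6e-05). Map3k5, a kinase of the stress response, followed at 0.84 (rho 0.75, permutation p = 0.00032). Their adjusted p-values ran from 9.38e-05 to 0.000183 (limma). Without the 2 farthest tumours the correlations were 0.73, 0.81 and 0.74 in the same order. Csf3r and these 3 genes also passed without replicate 4 of P (adjusted p up to 0.0273, limma), but none of the 4 passed after recentring (adjusted p from 0.0929 to 0.313, limma).

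The genes most opposed to Cxcr4 changed sign with the scaling. Sdha, a subunit of succinate dehydrogenase and 1 of the 20 reference genes, correlated at -0.80 (rho -0.77, permutation p = 3e-05, and -0.78 without the 2 farthest tumours), but at 0.43 under positive control scaling. Twist1, a transcription factor of mesenchymal cells, gave -0.78 (rho -0.80, permutation p = 7e-05, and -0.71 without those tumours) but 0.32 under that scaling. No direction can be given for these genes.

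**Figure D4:**
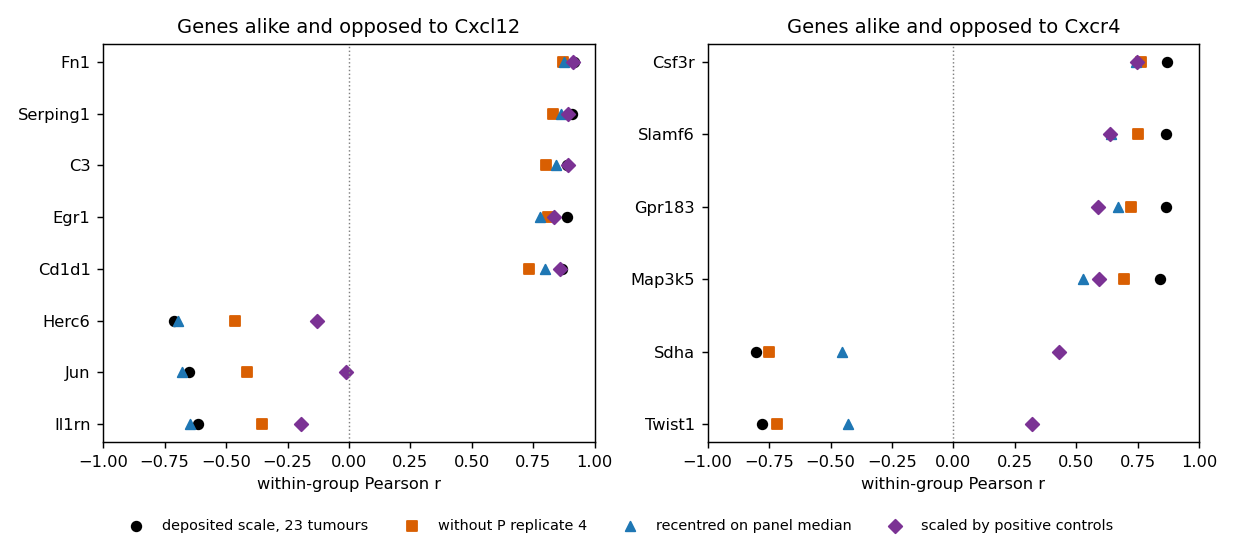
Within-group Pearson correlations of the 5 genes most like and the 3 genes most opposed to Cxcl12 (left), and of 4 genes like and 2 genes opposed to Cxcr4 (right), over 23 tumours on the deposited scale (circles), without replicate 4 of P (squares), after recentring on the panel median (triangles) and after scaling by positive controls (diamonds). The 5 genes like Cxcl12 stay above 0.70 throughout, the 4 like Cxcr4 spread from 0.53 to 0.87, and those opposed to Cxcr4 turn positive under positive control scaling.

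Genes of adhesion, by which cells that respond to CXCL12 attach to endothelium and matrix, were counted for both members. Of 11 measured, 7 were higher with Cxcr4 (background 41.7%), among them Itgam (r = 0.80) and Itgal (r = 0.70), the alpha chains of leucocyte integrins, while Fn1 gave 0.31 and did not pass. With Cxcl12, 3 were higher (27.3%, beside 23.8% over all genes), namely Fn1, Itga4 (r = 0.74) and Itgb2 (r = 0.57). Itga4 pairs with the beta 1 chain to bind fibronectin and VCAM1. Itgam remained at 0.75 with Cxcr4 without replicate 4 of P (adjusted p = 0.0132, limma) and at 0.45 after recentring, where it did not pass (adjusted p = 0.33, limma). Without replicate 4 of P the counts were 3 of 11 for Cxcr4 (beside 9.62% over all genes) and 1 of 11 for Cxcl12 (beside 6.89%).

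Of 19 genes of signalling below CXCR4, 6 were higher with Cxcr4, a share of 31.6% that lies below the 41.7% over all genes, and 2 were lower. The highest correlations were those of Jak3, the kinase of the common gamma chain of cytokine receptors (r = 0.73), and Syk, a kinase of immune receptors (r = 0.73). Pik3cg, the phosphoinositide kinase that couples to chemokine receptors, gave 0.66. Of the 19, 1 was higher without replicate 4 of P, Jak3, beside 9.62% over all genes. Of 17 other chemokine receptors, 9 were higher with Cxcr4 (a share of 52.9%, beside 41.7% over all genes), led by Ccr6 (r = 0.76) and Ccr9 (r = 0.71), which lay above background in 6 and 16 tumours. The count was 1 of 17, Ccr9, without replicate 4 of P, beside 9.62% over all genes. Cxcr3, the receptor of the interferon-induced CXC chemokines on T cells, gave 0.60.

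Leucocyte markers stood beside these relations. Ptprc, which encodes CD45 of all leucocytes, correlated with Cxcr4 at 0.58 and passed the adjusted test, but at 0.37 without replicate 4 of P, where it did not. Over all genes, 41.7% were higher with Cxcr4, or 9.62% without that tumour, and the median correlation was 0.43. Of 7 T cell markers, 6 were higher with Cxcr4, with a median correlation of 0.69, and 2 without that tumour. Of 10 genes of macrophages and monocytes 6 were higher, and 1 without it, while of 7 genes of neutrophils 1 was higher with and without it, Csf3r. The summed log2 level of the 7 T cell markers ran from 8.99 to 11.2 in P, from 8.39 to 10.0 in A, from 8.90 to 9.88 in DZ and from 8.49 to 10.1 in ADZ. Of the fibroblast and matrix genes 3 were higher with Cxcr4, and 0 without replicate 4 of P. The part of leucocyte content in the levels of Cxcr4 was not tested.

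With both members in a single fit, an alternative chosen after seeing the data, 121 genes moved with Cxcl12 at a given level of Cxcr4 (15.8% of 768) and 224 moved with Cxcr4 at a given level of Cxcl12 (29.2%). Fn1, Serping1, C3, Egr1 and Cd1d1 all passed for Cxcl12, with adjusted p-values up to 0.000104 (limma). Csf3r, Slamf6, Gpr183 and Map3k5 all passed for Cxcr4, with adjusted p-values up to 0.000675 (limma). Both sets of genes had been picked by their correlations in the same tumours, so passing here adds no independent test. The genes named for Cxcr4 did not pass after recentring in the fit with Cxcr4 alone, as given above.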

How the data were processed

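RNA of 23 tumours was hybridised by the authors to the nCounter panCancer mouse immune panel and normalised with nSolver. The deposited values are log2, and are whole barcode counts times 1 factor per tumour that gives the 20 reference genes the same mean, 11.4. The factors, 0.759 to 1.57, were recovered, after which 100% of the values were whole within 0.05, apart from 6 log2 values of exactly 0. Background was the mean of 8 negative controls plus 2 SD, times the factor. The number of tumours and the counts limit the precision.

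Differences and slopes on a member's level were fitted with limma 3.58.1 in R 4.3.3 on all 23 tumours (A minus DZ on its own 11), two-sided, with Benjamini-Hochberg adjustment, and were tested on simulated data. Correlations used values minus group means and 100000 permutations within groups, or exact permutations. Alternatives were recentring, quantile normalisation, positive control scaling, a pseudocount of 20, a mean of at least 50 normalised counts, an intensity trend, other tumours in the fit, the replicate number as a block, and leaving out each tumour. Of 770 symbols, 754 matched RefSeq symbols, 8 matched by synonym and 8 did not match.

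The members and lists were chosen with earlier results of these data known. The genes named are the 5 most and 3 least correlated with a member among genes above background in all tumours, and up to 4 of each list by correlation or role; further list genes were chosen after their values were seen. Not every gene so chosen is reported here. Figures used matplotlib 3.10.9.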

Additional observations from a re-analysis of the deposited data

Results flagged for a closer look

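In 3 instances a tumour lay far from the others of its group, by a gap to its nearest neighbour that exceeded Dixon's 95% value for the group's range. For Cxcl12 in DZ the gap between replicate 6 (9.98) and the next tumour (7.97) was 0.894 of the range. For the log2 ratio of Cxcl12 to Cxcr4 in DZ the gap of the same tumour (1.25, next -0.20) was 0.644 of the range. For Cxcr4 in P the gap between replicate 4 (9.66) and the next tumour (8.44) was 0.638 of the range, against a critical value of 0.625. Chance alone gives such a gap in about 1 of 20 groups, and 12 groups were examined.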

How the results depend on the processing

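Of 414 alternatives of the differences of Cxcl12 and Cxcr4 between groups, 0 gave an adjusted p under 0.05 (limma, smallest 0.4999), 382 kept their direction and 32 reversed it. Quantile normalisation gave -0.014 for Cxcl12 in ADZ minus P and 0.030 for its interaction, a pseudocount of 20 gave -0.0012 and 0.025, and positive control scaling gave 0.081 for that interaction and -0.029 for Cxcr4 in DZ minus P.

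Leaving out each tumour in turn gave, for Cxcl12, -0.54 to 0.37 in A minus P, -0.022 to 0.98 in DZ minus P, -0.29 to 0.68 in ADZ minus P, -0.63 to 0.055 in ADZ minus DZ, -0.015 to 0.57 in ADZ minus A, -0.45 to 0.034 for Anakinra and -0.67 to 0.33 for the interaction. For Cxcr4 it gave -0.33 to 0.055 in ADZ minus P and -0.19 to 0.20 for the interaction. For the ratio it gave -0.20 to 0.51 in A minus P, -0.12 to 0.59 in DZ minus P, -0.073 to 0.62 in ADZ minus P, -0.27 to 0.39 in ADZ minus DZ, -0.19 to 0.47 in ADZ minus A and -0.39 to 0.24 in A minus DZ. The correlation of Cxcl12 with Cxcr4 ran from -0.15 to 0.52, and was -0.20 after recentring (permutation p = 0.443) and -0.026 after quantile normalisation (permutation p = 0.926). The count of genes that moved with Cxcl12 ran from 53 to 273, and with Cxcr4 from 76 to 373. Recentring gave 0 genes and quantile normalisation 4 for Cxcr4, and both members in a single fit, chosen after seeing the data, gave 121 and 224. The cause was not tested.

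Whether replicate numbers pair the tumours is not given by the labels and was not tested. Correlations of like-numbered tumours exceeded 0.1 in 4 of 5 pairs of P with A (from -0.29 to 0.56). They did so in 3 of 6 of DZ with ADZ, and in at most 2 elsewhere. With the replicate block, 109 genes moved with Cxcl12 and 345 with Cxcr4, and differences in the ratio over like-numbered tumours were -0.12 in A minus P, -0.19 in ADZ minus A and 0.24 in A minus DZ. The block changed no other direction or call.

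Groups of 5 or 6 tumours and 1 tumour with high B cell and lymph node genes limit each comparison.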
